A study of Homo sapiens with 2 samples.

Results

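The genes described here encode the protein subunits of the mitochondrial ribosome whose symbols start with MRPL (named for the large subunit) or MRPS (for the small subunit). They were chosen by symbol from the RefSeq table of protein-coding genes on GRCh38, which gave 77 members, 49 MRPL and 28 MRPS, among the 20037 protein-coding genes of the autosomes and sex chromosomes. The family was picked for description with earlier peak results from these libraries in view. It was selected on the presence of peaks, their fold enrichment and their −log10 q, so those values describe the family and support no test. Chromatin accessibility was measured with ATAC-seq (a transposase inserts adapters where DNA is exposed) in C4-2 (C42 in the labels), a castration-resistant human prostate cancer line derived from LNCaP. Cells of 1 library carried an shRNA against WHSC1 (shWHSC1; the gene is also called NSD2 and encodes a histone H3 lysine methyltransferase), and cells of the other carried a control shRNA (CTR). Both were grown in RPMI with serum, and whether cells were pooled or clonal, and how many shRNA constructs were used, is not given in the sources used here. With 1 library per group there is no replicate error to compare a difference with, so no p-value is given.

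The mitochondrial ribosome translates the few mRNAs of the mitochondrial genome, all of which encode subunits of the respiratory chain complexes and ATP synthase. Its RNAs are made inside the organelle, whereas every one of its proteins is encoded in the nucleus, made in the cytosol and imported. Part of these proteins have counterparts in bacterial ribosomes, and part exist only in mitochondria.

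The authors deposited 2418 broad peaks for shWHSC1 and 2010 for CTR, each with a fold enrichment (pileup over local background in the same library) and a −log10 q from their peak caller. Read depth is unknown. Intervals are 95% exact Clopper-Pearson intervals, which cover counting error alone, and neighbouring genes under a common peak do not count independently. A gene without a peak lacked a call at the authors' threshold, which is no measure of closed chromatin: of 9 luminal prostate markers, 2 (ACP3 and STEAP2) had a peak in both libraries, and 7, among them KLK3, which encodes prostate-specific antigen, had none in either. None of the 4 leukocyte and 4 stromal markers had a peak. NSD2 itself had 0 peaks in shWHSC1 and 0 in CTR, and peaks give no check of a knockdown, which acts on the transcript.

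The promoters of the 4 members with the highest fold enrichment in either library are shown first, since those peaks lie on or beside their starts. They are MRPS9, MRPL50, MRPL18 and MRPL17. Each run is the RefSeq sequence (GRCh38.p14) upstream of the annotated start, on the gene's strand, ending with the base before the start. A run stops where the next protein-coding gene begins, so for MRPL18 and MRPL50 it is the whole gap to TCP1 and to ZNF189. Capitals mark matches, on either strand, to the motifs spelled out further on.
MRPS9, chr2:105037819-105038068, plus strand: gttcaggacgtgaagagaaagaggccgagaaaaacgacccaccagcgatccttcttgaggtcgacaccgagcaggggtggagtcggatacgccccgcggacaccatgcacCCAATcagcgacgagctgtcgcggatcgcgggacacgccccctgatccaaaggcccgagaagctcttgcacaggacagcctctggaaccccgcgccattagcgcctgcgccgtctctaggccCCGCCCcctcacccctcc
MRPL50, chr9:101398619-101398850, minus strand: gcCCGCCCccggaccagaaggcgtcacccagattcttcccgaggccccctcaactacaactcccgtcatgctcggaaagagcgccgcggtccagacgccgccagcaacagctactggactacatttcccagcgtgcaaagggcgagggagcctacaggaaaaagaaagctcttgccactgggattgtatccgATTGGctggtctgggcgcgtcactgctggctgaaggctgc
MRPL18, chr6:159789603-159789811, plus strand: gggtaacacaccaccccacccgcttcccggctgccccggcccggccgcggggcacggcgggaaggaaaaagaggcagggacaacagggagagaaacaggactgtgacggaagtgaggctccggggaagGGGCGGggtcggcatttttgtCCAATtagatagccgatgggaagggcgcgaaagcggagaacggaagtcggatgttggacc
MRPL17, chr11:6683341-6683590, minus strand: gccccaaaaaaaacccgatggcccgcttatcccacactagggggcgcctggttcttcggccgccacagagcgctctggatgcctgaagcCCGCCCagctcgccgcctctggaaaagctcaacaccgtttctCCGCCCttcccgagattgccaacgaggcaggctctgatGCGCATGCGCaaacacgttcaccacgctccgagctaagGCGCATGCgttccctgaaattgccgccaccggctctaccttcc

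Most mitochondrial ribosomal protein genes had no peak, as held for all protein-coding genes, and fewer members had one in shWHSC1 than in CTR. A peak lay in the gene or within 3 kb of an end for 7 of 77 members in shWHSC1 (9.09%, interval 3.73 to 17.8%) and for 12 of 77 in CTR (15.6%, interval 8.32 to 25.6%). The same call held for 9.26% of all protein-coding genes in shWHSC1 and 7.64% in CTR. The members' share was 0.981 times the background in shWHSC1 and 2.04 times in CTR, and the members' own intervals overlapped. In a bulk library, fewer cells with an open site and a less open site in every cell cannot be told apart. With read depth unknown, a site missed at the authors' threshold cannot be told apart from either.

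A peak in both libraries was found for 5 of the 77 members, MRPL22, MRPL50, MRPL57, MRPS9 and MRPS28. MRPL24 and MRPS35 had a peak in shWHSC1 only (2 members), and MRPL1, MRPL3, MRPL13, MRPL17, MRPL18, MRPS22 and MRPS33 in CTR only (7 members). These were 6.49% in both, 2.60% in shWHSC1 only and 9.09% in CTR only, beside 4.95%, 4.32% and 2.69% of all protein-coding genes. Of the members with a CTR peak, 41.7% also had one in shWHSC1, against 64.8% of all genes with a CTR peak. Of the members with a shWHSC1 peak, 71.4% also had one in CTR, against 53.4% of all such genes.

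**Figure D1:**
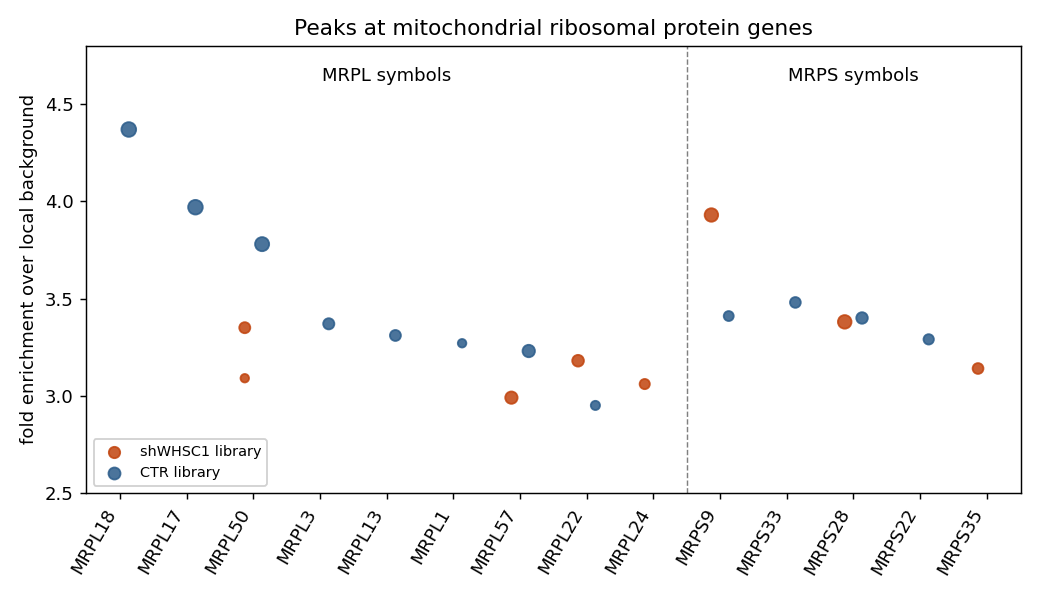
Fold enrichment over local background (vertical axis, starting at 2.5) of every peak at an MRPL or MRPS gene, in the shWHSC1 library and in the CTR library; each point is 1 peak and its area grows with −log10 q. The points lie between 2.95 and 4.37, and only MRPL22, MRPL50, MRPL57, MRPS9 and MRPS28 have points of both libraries.

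Both symbol groups had members with a peak in each library. Of the MRPL genes, 4 of 49 had a peak in shWHSC1 (8.16%, interval 2.27 to 19.6%) and 8 of 49 in CTR (16.3%, interval 7.32 to 29.7%). Of the MRPS genes, 3 of 28 had a peak in shWHSC1 (10.7%, interval 2.27 to 28.2%) and 4 of 28 in CTR (14.3%, interval 4.03 to 32.7%). The intervals of MRPL and MRPS genes overlapped in both libraries. At a −log10 q of 2 or more the MRPS order turned, with 2 genes in shWHSC1 and 1 in CTR. Median fold was 3.09 over 5 MRPL peaks and 3.38 over 3 MRPS peaks in shWHSC1, and 3.34 over 8 and 3.41 over 4 in CTR. RefSeq synonyms place the proteins of 2 MRPS genes, MRPS18A (mL66) and MRPS30 (mL65), in the large subunit, and neither had a peak. By protein name, or by symbol where the table has no such name, 4 of 51 large-subunit genes had a peak in shWHSC1 (7.84%) and 8 of 51 in CTR (15.7%), and 3 of 26 small-subunit genes in shWHSC1 (11.5%) and 4 of 26 in CTR (15.4%).

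**Figure D2:**
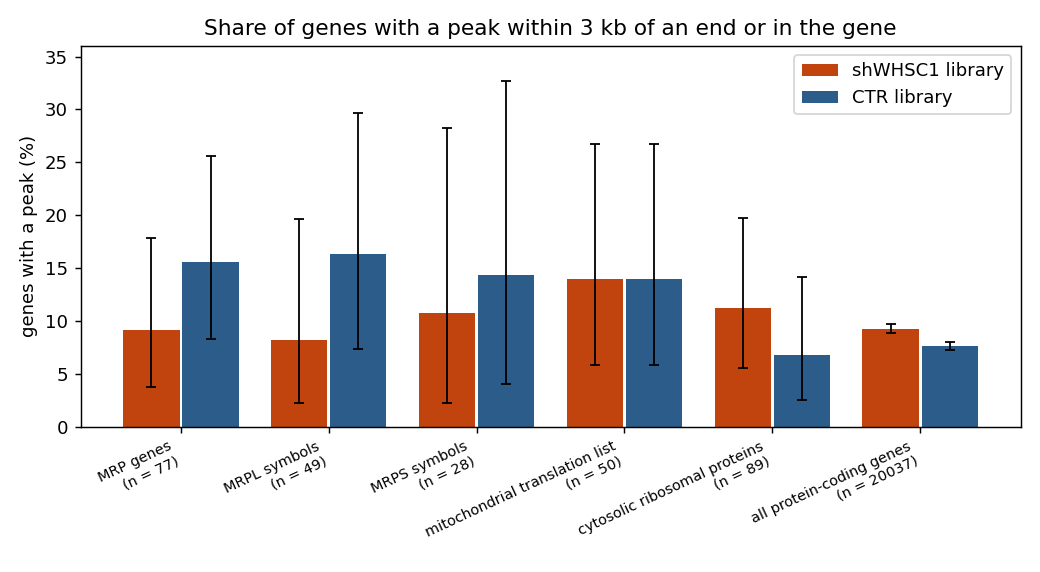
Percentage of genes with a peak (vertical axis) in the shWHSC1 and CTR libraries for the 77 MRP genes, their MRPL and MRPS symbols, 50 other mitochondrial translation genes, 89 cytosolic ribosomal protein genes and all 20037 protein-coding genes; bars are shares and lines 95% exact intervals for counting. The MRP bars are 9.09% in shWHSC1 and 15.6% in CTR, and every list's intervals in the 2 libraries overlap except those of all protein-coding genes.

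RefSeq synonyms also give most members a name by ancestry: a u prefix for proteins found in ribosomes of all domains, b for those shared with bacteria, and m for those particular to mitochondria. Of 26 members with a universal name, 3 had a peak in shWHSC1 and 6 in CTR. Of 18 with a bacterial name, none had a peak in shWHSC1 and 1, MRPL17, in CTR. Of 31 with a mitochondrial name, 3 had a peak in shWHSC1 and 4 in CTR. The remaining 2 members, MRPS24 and MRPS28, carry no such synonym in the table, and MRPS28 had a peak in both libraries. Of all protein-coding genes, 9.26% had a peak in shWHSC1 and 7.64% in CTR. With 18 members, the counts for the bacterial name are close to those shares, and no difference between the names was tested.

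Among the large-subunit proteins with universal counterparts, the strongest peak was at MRPL18 (uL18m), a protein of the central protuberance. Its peak at chromosome 6, 159789663 to 159789973, had 4.37-fold enrichment and a −log10 q of 3.32 in CTR, and shWHSC1 had no peak within 27.2 kb of that place. Both values were the highest among the members' peaks of either library. The peak ran from 149 bp upstream to 161 bp downstream of the MRPL18 start and lay 61 bp from the start of TCP1, which encodes a subunit of the cytosolic chaperonin that folds actin and tubulin. It cannot be assigned to MRPL18 rather than TCP1.

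MRPL22 (uL22m) lines the tunnel through which the new protein leaves the ribosome. It had a 3.18-fold peak in shWHSC1 (chromosome 5, 154937789 to 154938623, −log10 q 2.11) and a 2.95-fold peak in CTR (154938178 to 154938389, −log10 q 1.30). The shWHSC1 peak was 835 bp wide and the CTR peak, 212 bp wide, lay wholly inside it. Both covered the start of the neighbour GEMIN5, a protein of the SMN complex that binds small nuclear RNAs, and ended 2450 bp and 2684 bp from the MRPL22 start in shWHSC1 and CTR. MRPL22 was the member closest to the 3 kb limit from inside. The closest from outside was MRPL48, 8.09 kb from a 3.49-fold shWHSC1 peak.

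MRPL24 (uL24m), also near the exit of the tunnel, was the large-subunit gene with a peak in shWHSC1 only. The peak had 3.06-fold enrichment (chromosome 1, 156741136 to 156741397, −log10 q 1.60) and lay 48 bp upstream of the start that the reference lists. That start is inside the annotated span of the gene, which ends 1319 bp beyond the peak and overlaps HDGF, the gene of a secreted growth factor. The HDGF starts in the table were 9896 bp or more away.

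The other 3 universal proteins of the large subunit with a peak, MRPL1 (uL1m), MRPL3 (uL3m) and MRPL13 (uL13m), had weak ones in CTR only. MRPL1, which forms the mobile stalk beside the tRNA exit site, had a 3.27-fold peak over its start (chromosome 4, 77862754 to 77863066) with a −log10 q of 1.12, ranked 1958 of the 2010 CTR peaks. MRPL3, which reaches toward the peptidyl transferase centre, had a 3.37-fold peak (chromosome 3, 131502993 to 131503242, −log10 q 1.92) that ended 22 bp upstream of its start. MRPL13 had a 3.31-fold peak (chromosome 8, 120445180 to 120445391, −log10 q 1.85) 30 bp outside its gene end and 28 bp from an end of MTBP, an MDM2-binding protein. The nearest shWHSC1 peak was 44.1 kb from the MRPL1 peak, 121 kb from that of MRPL3 and 571 kb from that of MRPL13.

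MRPL17 (bL17m) was the only gene with a bacterial name among its RefSeq synonyms that had a peak, MRPS28 being without a name by ancestry there. The CTR peak at chromosome 11, 6683344 to 6683736, had 3.97-fold enrichment and a −log10 q of 3.29, and shWHSC1 had no peak within 70.7 kb of that place. It began 4 bp upstream of the start and covered 247 of the 250 bases printed above, so it lay on the upstream side only. No other protein-coding gene shared it, though the pseudogene RPL21P94 lay within 3 kb.

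Of the large-subunit proteins found only in mitochondria, MRPL50 (mL50) and MRPL57 (mL63) had peaks over their starts in both libraries. MRPL50 had 3.35-fold enrichment in shWHSC1 (chromosome 9, 101398367 to 101398735, −log10 q 1.87) and 3.78-fold in CTR (101398464 to 101398800, −log10 q 3.05). The peaks covered 117 bases of the gap to ZNF189, a zinc finger gene, in shWHSC1 and 182 of its 232 bases in CTR. They ended 116 bp and 51 bp from the ZNF189 start in shWHSC1 and CTR. MRPL50 was also the sole member with a second peak, at 3.09-fold inside the gene and 1066 bp from its far end, in shWHSC1 only (−log10 q 1.11, rank 2387 of 2418).

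MRPL57 had 2.99-fold enrichment in shWHSC1 (chromosome 13, 21176377 to 21176723, −log10 q 2.34) and 3.23-fold in CTR (21176345 to 21176864, −log10 q 2.37). The shWHSC1 peak lay wholly inside the CTR peak. Both also covered the start of SKA3, which encodes a protein of the complex that couples kinetochores to spindle microtubules.

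In the small subunit, MRPS9 (uS9m), whose tail contacts the tRNA in the decoding region, had the shWHSC1 peak with the highest fold of the family, while MRPS28 had the highest −log10 q there. The MRPS9 peak had 3.93-fold enrichment in shWHSC1 (chromosome 2, 105038087 to 105038317, −log10 q 2.80) and 3.41-fold in CTR (105037962 to 105038305, −log10 q 1.53). The shWHSC1 peak began 18 bp downstream of the start, and the CTR peak ran from 107 bp upstream to 236 bp downstream of it. The 2 peaks shared 219 bp. No other protein-coding gene lay within 3 kb, while the antisense gene MRPS9-AS2 overlaps the place.

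MRPS28 had nearly equal values, 3.38-fold in shWHSC1 (chromosome 8, 80029945 to 80030311, −log10 q 2.84) and 3.40-fold in CTR (80030020 to 80030309, −log10 q 2.05). The peaks lay over an end of MRPS28 and also 771 bp and 773 bp, in shWHSC1 and CTR, from an end of TPD52, a tumour-associated gene, inside the span of the read-through gene TPD52-MRPS28. MRPS35 (mS35) had a peak in shWHSC1 only, 3.14-fold (chromosome 12, 27710208 to 27710828, −log10 q 1.8). That peak was 621 bp wide, ended 4 bp upstream of the MRPS35 start and overlapped the divergent lncRNA gene MRPS35-DT.

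MRPS22 (mS22) and MRPS33 (mS33), both found only in mitochondria, had peaks in CTR only. MRPS22, mutated in a combined deficiency of the respiratory chain, had a 3.29-fold peak (chromosome 3, 139343997 to 139344283, −log10 q 1.65) beginning 3 bp downstream of its first start. MRPS33 had a 3.48-fold peak (chromosome 7, 141015019 to 141015252, −log10 q 1.79) that ended 67 bp upstream of its start. The nearest shWHSC1 peaks were 45.5 kb from the MRPS22 peak and 318 kb from the MRPS33 peak.

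**Figure D3:**
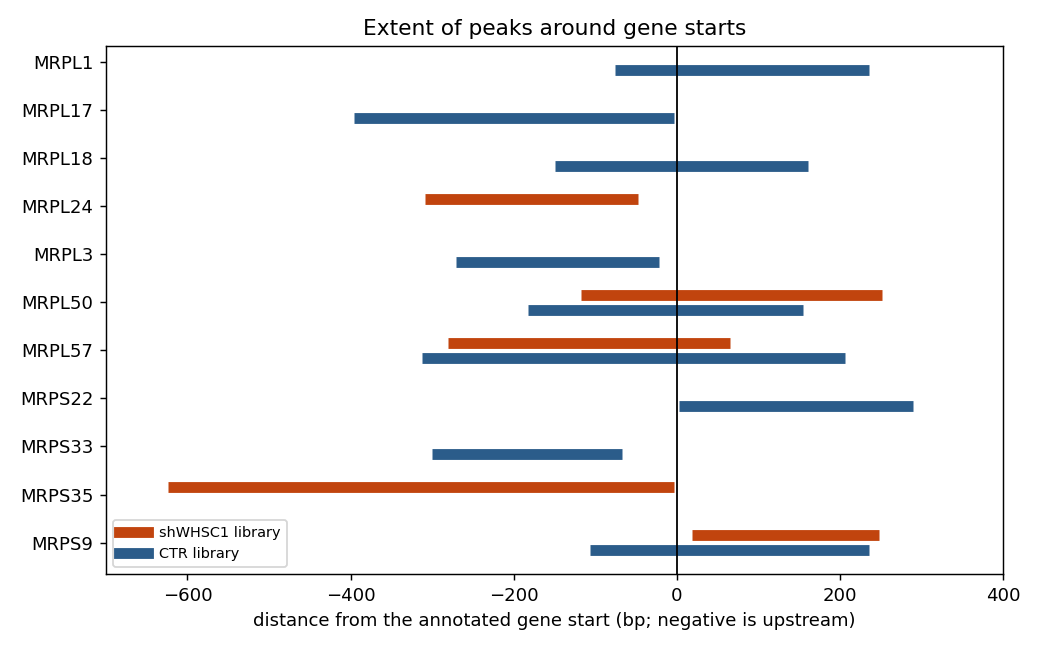
Extent of each peak along the gene, in bp from the annotated gene start (0; negative is upstream), for 11 MRPL and MRPS genes, with the shWHSC1 peak above the CTR peak of the same gene. Peaks sit on or beside the start, from 624 bp upstream (MRPS35) to 289 bp downstream (MRPS22); the MRPL22 peaks, the second MRPL50 peak and the peaks of MRPL13 and MRPS28, which have no start in the reference, are not drawn.

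Peaks at members thus lay mostly at gene starts. In shWHSC1, 5 of the 7 peaks at members with an annotated start covered one or lay within 100 bp of it, and in CTR 9 of 10. Among peaks at all protein-coding genes with a start, 66.6% in shWHSC1 and 68.4% in CTR did so. The measures differ. A member peak was set against that member's own starts, and the background against the starts of every gene at the peak. Both MRPL22 peaks cover the GEMIN5 start and would count by the background's measure. Sharing with another protein-coding gene was frequent: 5 of 8 member peaks in shWHSC1 and 6 of 12 in CTR also lay within 3 kb of, or in, another gene, against 19.9% of shWHSC1 and 19.8% of CTR peaks at protein-coding genes. The background counted each peak once. A list of genes reaches a shared peak through any gene at it, so such peaks are favoured among members and the shares are not fully alike. The neighbours were HDGF, GEMIN5, TCP1, TPD52 with its read-through gene, MTBP, ZNF189 and SKA3.

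In the median, member peaks were somewhat weaker than peaks at protein-coding genes. The fold enrichment of member peaks ran from 2.99 to 3.93 in shWHSC1 (median 3.16, 8 peaks) and from 2.95 to 4.37 in CTR (median 3.38, 12 peaks). Medians over all peaks at protein-coding genes were 3.46 in shWHSC1 and 3.59 in CTR. Median −log10 q was 1.99 at members against 2.2 at protein-coding genes in shWHSC1, and 1.89 against 2.14 in CTR. A −log10 q of 2 or more was reached by 50% of member peaks in shWHSC1, against 56.3% of all peaks there. In CTR the shares were 41.7% and 52.9%. No member peak reached a −log10 q of 5 in either library, a value that 9.88% of all shWHSC1 peaks and 9.50% of all CTR peaks reached. With only 8 and 12 member peaks, having none is close to those shares.

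**Figure D4:**
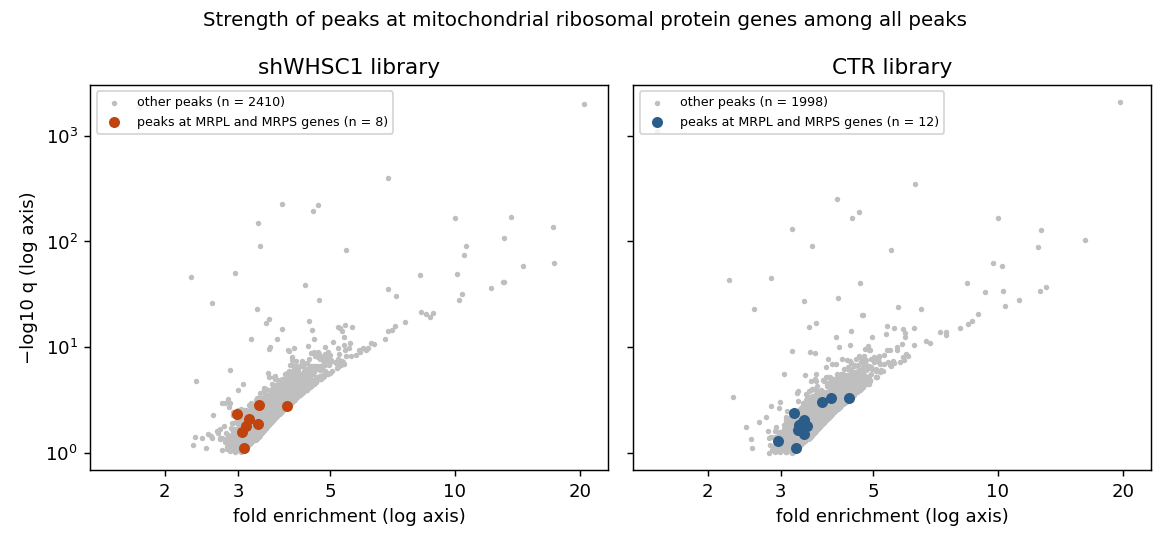
Fold enrichment (horizontal) against −log10 q (vertical), both on log axes, for every peak of the shWHSC1 library (left) and of the CTR library (right); coloured points are the 8 and 12 peaks at MRPL and MRPS genes, grey points all others. The coloured points stay in the low corner, at or under 3.93-fold in shWHSC1 and 4.37-fold in CTR.

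With both lists limited to peaks of −log10 q 2 or more, the gap between the libraries narrowed to 4 members in shWHSC1 (MRPS9, MRPL22, MRPS28 and MRPL57) and 5 in CTR (MRPL18, MRPS28, MRPL50, MRPL17 and MRPL57). At that limit 5.63% of all genes had a peak in shWHSC1 and 4.36% in CTR. Counting peaks within 3 kb of either end and leaving out the rest of the gene body kept 7 members in shWHSC1 and 12 in CTR, against 7.52% and 6.28% of all genes.

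At the 5 members with a peak in both libraries the peaks overlapped each other, and their fold enrichment was similar. The ratio of shWHSC1 to CTR fold was 1.15 at MRPS9, 1.08 at MRPL22, 0.992 at MRPS28, 0.925 at MRPL57 and 0.886 at MRPL50. Over all 1088 overlapping pairs of peaks in the 2 lists the median ratio was 0.983, with quartiles of 0.9 and 1.07. The members' ratios lay on both sides of that median and inside its central 95%, 0.744 to 1.30.

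Peaks seen in 1 library were at the weak end in shWHSC1. The 3 shWHSC1 member peaks without a CTR partner had a median −log10 q of 1.60, and the 5 with a partner 2.34. The 7 CTR member peaks without a shWHSC1 partner had a median −log10 q of 1.85, and the 5 with a partner 2.05. Among the 525 shWHSC1 peaks at protein-coding genes in the −log10 q range of those 3 peaks, 22.7% had a CTR partner. Among the 1036 CTR peaks at protein-coding genes in the range of the 7 (1.12 to 3.32), 50.5% had a shWHSC1 partner. The 3 and 7 member peaks were picked for having no partner, so these shares are no measure of the members. The ranges differ, so the 2 shares cannot be compared with each other.

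The members with a peak lay in gene-poor surroundings. They had a median of 7 protein-coding genes within 500 kb (lowest 3, highest 30), the 63 members without a peak a median of 17 (lowest 1, highest 53), and all protein-coding genes a median of 12. Of the 34 members at or under 12 neighbours, 6 had a peak in shWHSC1 (17.6%) and 11 in CTR (32.4%), against 15.2% and 12.7% of all genes in such places. Of the 43 members over 12 neighbours, 1 had a peak in shWHSC1, MRPL24, and 1 in CTR, MRPL17 (2.33% each), against 2.64% and 1.96% of all genes. Members with a peak were also longer than those without, with a median of 20743 bp against 8105 bp. The median of all protein-coding genes was 24115 bp, so the members without a peak were the short ones. The part of local density and length in the result was not tested.

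**Figure D5:**
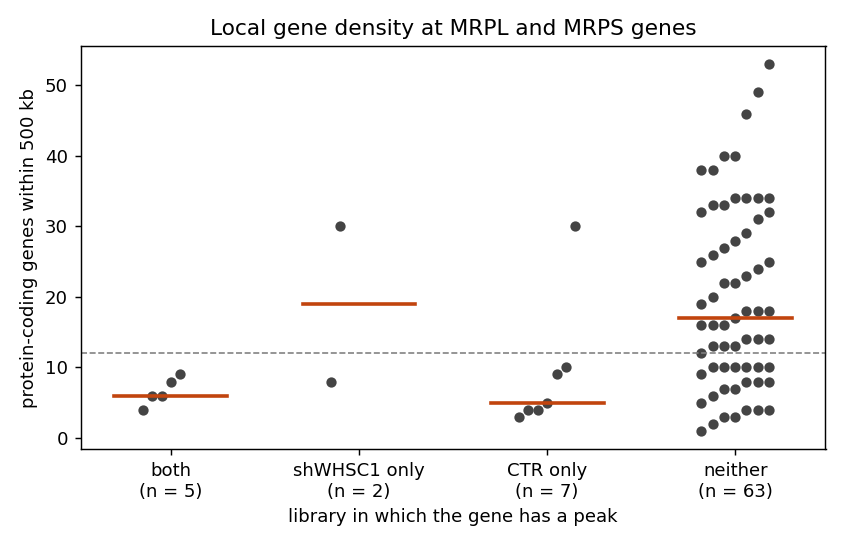
Number of protein-coding genes within 500 kb (vertical axis) for each MRPL or MRPS gene, grouped by the library in which it has a peak; points are genes, short lines group medians and the dashed line the median of all protein-coding genes, 12. All 5 members with peaks in both libraries lie below the dashed line, and the 63 without a peak spread from 1 to 53.

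By chromosome, 13 members lie on chromosomes 17, 19 and 22 and none of them had a peak in either library, where 0.782% of all genes had one in shWHSC1 and 0.358% in CTR. Of 11 members on chromosomes 3, 5 and 8, 2 had a peak in shWHSC1 (18.2%) and 5 in CTR (45.5%), where 18.9% of all genes had one in shWHSC1 and 17.7% in CTR. These groups of chromosomes were picked without a stated rule. Members on chromosomes 10, 14, 15, 16, 20 and 21 also had no peak, while 1 of 2 members had one on chromosome 4 and on chromosome 13. Each of these chromosomes holds only 1 or 2 members, and their background shares over all genes are not given here. Counts this small show no pattern by chromosome. The 40 MRPL genes without a peak were MRPL2, MRPL4, MRPL9, MRPL10, MRPL11, MRPL12, MRPL14, MRPL15, MRPL16, MRPL19, MRPL20, MRPL21, MRPL23, MRPL27, MRPL28, MRPL30, MRPL32, MRPL33, MRPL34, MRPL35, MRPL36, MRPL37, MRPL38, MRPL39, MRPL40, MRPL41, MRPL42, MRPL43, MRPL44, MRPL45, MRPL46, MRPL47, MRPL48, MRPL49, MRPL51, MRPL52, MRPL53, MRPL54, MRPL55 and MRPL58. The 23 MRPS genes without a peak were MRPS2, MRPS5, MRPS6, MRPS7, MRPS10, MRPS11, MRPS12, MRPS14, MRPS15, MRPS16, MRPS17, MRPS18A, MRPS18B, MRPS18C, MRPS21, MRPS23, MRPS24, MRPS25, MRPS26, MRPS27, MRPS30, MRPS31 and MRPS34.

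Motifs were searched as exact letters on both strands in the RefSeq window from 250 bases before to 50 after each start, 1 window per gene. The motifs were CCGGAAG (the site of ETS factors), GCATGCGC (within the site of NRF1, a regulator of nuclear genes for mitochondrial proteins), AAGATGGCG (YY1), CACGTG (the E-box), CCAAT (the CCAAT box), GGGCGG (the GC box) and TATAAA (the TATA box). None of these letter strings contains another. Windows existed for 69 of the 77 members and for 15843 protein-coding genes.

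Across the family, the ETS and YY1 letters were in a clearly higher share of windows than in promoters at large, with no test made. The shares of the GC box and the E-box were close to those of all promoters. The ETS letters were in 29 of 69 member windows (42%) against 14.2% of all, and the YY1 letters in 13 (18.8%) against 2.69%. The NRF1 letters were in 6 (8.70%) against 4.28%, the GC box in 59.4% against 58.3%, CCAAT in 29.0% against 36.4%, the E-box in 10.1% against 8.82% and the TATA letters in 2 (2.90%) against 9.75%. Median GC content was 60.3% in member windows and 62.7% in all.

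Within the family, the members with a peak were set beside those without. Of the 12 members with a peak and a window, 3 held the ETS letters (MRPL3, MRPS22 and MRPS33), or 25%, against 26 of the 57 without a peak (45.6%). The YY1 letters were in 2 of the 12 (MRPL22 and MRPL50) and in 11 of the 57 (19.3%), but no peak lay over the MRPL22 window. The GC box was in 8 of the 12 (66.7%) and in 57.9% of the 57. The 11 member windows under a peak can be set beside the 1308 such windows of all protein-coding genes. The ETS letters were in 27.3% against 23.1%, the YY1 letters in 1 window (9.09%) against 3.44%, and CCAAT in 27.3% against 50.3%. In the sequences printed above, the MRPL17 promoter held the NRF1 letters 3 times, beginning at positions -81, -79 and -43 from the start, the first 2 overlapping each other on opposite strands. In the MRPL18 promoter CCAAT began at -60, and in the MRPL50 promoter the same letters on the other strand began at -40. A match is a description of letters and not a bound site.

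Other genes of mitochondrial translation and transcription were taken from a list of 50 that do not carry MRPL or MRPS symbols. Of these, 7 had a peak in shWHSC1 (14.0%, interval 5.82 to 26.7%) and 7 in CTR (14.0%, the same interval), 6 of them in both, so the 2 libraries had the same number. TFB1M, which dimethylates the small ribosomal RNA of mitochondria, had 5.28-fold enrichment in shWHSC1 and 4.34-fold in CTR. Its relative TFB2M, a mitochondrial transcription factor, had 3.96-fold and 4.94-fold in shWHSC1 and CTR. METTL15, a methyltransferase of the same small RNA, had 4.58-fold in shWHSC1 and 3.55-fold in CTR.

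MTERF3, a factor of mitochondrial transcription and ribosome assembly, had 3.94-fold in shWHSC1 and 3.97-fold in CTR. NSUN3, which modifies a mitochondrial tRNA, had 3.71-fold in shWHSC1 and 3.76-fold in CTR. GFM1, an elongation factor, had 3.77-fold in shWHSC1 and 3.74-fold in CTR, at places 36.1 kb apart. GUF1, a translation GTPase, had a peak in shWHSC1 only (3.47-fold), and MTRF1L, a release factor, in CTR only (3.77-fold).

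Cytosolic ribosomal protein genes were set beside the mitochondrial ones as the most similar family. Of 89 such genes, 10 had a peak in shWHSC1 (11.2%, interval 5.52 to 19.7%) and 6 in CTR (6.74%, interval 2.51 to 14.1%), with 5 in both, 5 in shWHSC1 only and 1 in CTR only. Of those called in both lists, RPS29 had its shWHSC1 and CTR peaks 12 kb apart and RPL37 10.3 kb apart, so a shared call was not always a shared place. The order of the libraries was the opposite of that in the mitochondrial family, and each family's intervals overlapped those of the other. Among them, RPS29 had 3.81-fold in shWHSC1 and 3.96-fold in CTR, and RPS23 3.52-fold in shWHSC1 and 3.79-fold in CTR. RPL36AL (3.85-fold) had a peak in shWHSC1 only and RPL41 (3.82-fold) in CTR only. The difference between the 2 families was not tested, since no replicate exists.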

How the data were processed

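ATAC-seq peaks of 2 libraries were used, grouped by the condition label, shWHSC1 and CTR; peak names in the deposited lists call the CTR library NSD2 WT. The submitters' processing notes name MACS2, Bowtie2 (2.2.9), ChIPseeker (1.22.1), Picard (1.101), SAMtools (1.9) and CASAVA (1.8.2), and the GRCh38 build. What each tool did, any Tn5 shift, how duplicate and mitochondrial reads were handled and how peaks were called is not given in the sources used here, although these steps affect which peaks exist and how wide they are. The authors deposited a separate peak list for each library. The deposited fold enrichment is a ratio of pileup over local background. The deposited −log10 p-value and −log10 q-value are the caller's, and the deposited score follows the −log10 q-value. No scaling between libraries was applied, and depth is unknown.

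A gene had a peak if a peak lay in it or within 3 kb of an end; peaks were shared at 1 bp of overlap. Gene spans, starts and sequences came from RefSeq tables (GRCh38.p14), with 1-based coordinates. Every member with a peak is named; of the other lists at most 10 genes each, by fold. The members and lists were chosen with earlier results of these data known; the list of 50 also holds METTL5 and LETM1, which lie outside mitochondrial translation. Alternatives were other distances, gene starts only, −log10 q limits of 2 and 5, lists of equal length and an overlap of 50%. The gene call was checked on simulated data: 200 of 200 planted peaks were recovered over 20037 genes. Software was scipy 1.17.1, pandas 2.3.3 and numpy 2.4.6 under Python 3.11.15, with figures from matplotlib 3.10.9. The values of 1 further luminal marker are not reported here.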

Additional observations from a re-analysis of the deposited data

How the results depend on the processing

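Of 76 recomputed counts, 52 stayed within 1.5 times the value reported and 24 moved further; the difference between libraries over all members kept its sign or was 0. No paired analysis was possible because each group holds 1 library and no result comes from a test. At a −log10 q of 5, no member had a peak in either library, so every count of genes was 0 (all genes 0.739% in shWHSC1 and 0.579% in CTR). At a limit of 2, members with a peak numbered 4 in shWHSC1 and 5 in CTR, a difference of -1 in place of -5; 2 had one in both and 3 in CTR only. At that limit MRPL symbols had 2 genes in shWHSC1 and 4 in CTR, and MRPS symbols 2 in shWHSC1 and 1 in CTR, the order opposite to the 3 and 4 reported, while 2 peaks in each list kept a partner and 3 members in shWHSC1 shared theirs with a neighbour. Counting gene starts only also gave 3 such members in shWHSC1. The difference between libraries as a measure was added after the data were seen. Read depth and the single library per group limit all counts.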

Other observations

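The table lists 106 pseudogenes with MRPL or MRPS symbols. A peak lay within 3 kb of 2 of them in shWHSC1 and of 1 in CTR, and no such peak overlapped the pseudogene itself. MRPS18CP3 spans 18086882 to 18087636 on chromosome 8. The shWHSC1 peak beside it (18083403 to 18084863) had 3.03-fold enrichment (−log10 q 1.96). In CTR the peak (18084083 to 18084399) had 4.13-fold enrichment (−log10 q 4.07). MRPS18C had no peak in either library. MRPL2P1, on chromosome 12, ends at 89753867, and a 3.31-fold peak began at 89756625 in shWHSC1 only (−log10 q 1.35), while MRPL2 had none. The −log10 q of 4.07 is above that of every peak at a member gene, but that peak cannot be assigned to the pseudogene.

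MRPS14 (uS14m) had no peak but lay 12.6 kb from a 4.71-fold shWHSC1 peak (−log10 q 8.66) and 13.2 kb from a 3.63-fold CTR peak (−log10 q 3.01). Values are given without an explanation.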
